A study of Mus musculus with 9 samples.

Results

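The genes described here are 7 transcription factor genes of the primitive streak and the mesoderm and endoderm that leave it: Eomes, Mixl1, Evx1, Lhx1, Mesp1, Gsc and Nkx1-2. Each was read through 1 probe set, the one with the highest mean over the 9 arrays among those annotated to that gene alone, and 7 of 7 were found among 25341 probe sets with a gene name, 23521 of them annotated to a single gene. The arrays were Affymetrix Mouse Gene 2.0 ST arrays of embryoid bodies (EBs), the hanging-drop aggregates in which mouse embryonic stem cells of a C57BL/6 line start to differentiate. Control EBs were unexposed. AgNP EBs received 5.0 µg/ml of citrate-coated silver nanoparticles of 20 nm, and Ag+ EBs received the same 5.0 µg/ml of silver as silver acetate. Exposure started on day 3 and lasted 24 h, and each group had 3 arrays labelled as biological replicates. All groups shared the same line and culture, without the factors that keep the stem cells undifferentiated, and an EB holds a mixture of cell types in a single RNA sample. A lower signal can therefore mean fewer cells of a type or less RNA per cell, and these cannot be told apart here.

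The primitive streak is the stripe on the posterior side of the gastrulating embryo through which epiblast cells move to become mesoderm and endoderm. It is induced by Nodal, Wnt3 and BMP4 signals, and differentiating EBs pass through a comparable stage. Eomes is a T-box factor needed for definitive endoderm and for the exit of mesoderm from the streak, and it switches on Mesp1, the basic helix-loop-helix factor of the first cardiac mesoderm. Mixl1 is a paired-type homeobox factor of the streak that is known for its part in endoderm formation. Evx1 is an even-skipped type homeobox factor of the posterior streak, Gsc and Lhx1 are homeobox factors of the anterior streak and of the axial mesoderm that forms from it, and Nkx1-2 is a homeobox gene of the caudal epiblast beside the later streak.

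All values are log2 signals after robust multi-array averaging (RMA), and differences are log2 differences between group means. The medians of the 9 arrays over the named probe sets lay between 5.03 and 5.08, and arrays correlated at 0.994 to 0.996 within groups and at 0.991 to 0.996 between groups, so no array stood apart. Of 8 pluripotency markers of the labelled stem cells, Nanog, Sox2, Pou5f1, Klf4 and Tfcp2l1 averaged 7.81, 7.63, 6.05, 5.69 and 5.10 over the 9 arrays. These lay above the median of 5.06 over all named probe sets, Tfcp2l1 only just. Zfp42, Esrrb and Dppa5a averaged 4.96, 4.43 and 4.17, below it. The 4 epiblast markers Dnmt3b, Fgf5, Otx2 and Pou3f1 averaged 10.18, 8.27, 7.45 and 5.67, all above that median. A probe set was called changed at an adjusted p under 0.05 (limma, Benjamini-Hochberg over all 25341 named probe sets).

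With Ag+, Eomes and Evx1 fell and Nkx1-2 rose against the controls, by 1.95-fold, 1.55-fold and 1.99-fold. That is 3 of the 7 genes called, 1 higher and 2 lower, where 2.28% of all named probe sets were called (0.813% higher and 1.47% lower). The 3 Ag+ arrays lay wholly below the 3 control arrays for 4 of the 7, Eomes, Mixl1, Evx1 and Gsc, against 9.51% of all named probe sets, and wholly above them for Nkx1-2 alone, against 6.99%. At an unadjusted p under 0.05, 4 of the 7 passed with Ag+, Mixl1 being the fourth, beside 13.8% of named probe sets. With AgNP, limma called 0 of the 7, where 0.0868% of named probe sets were called (0.0355% higher and 0.0513% lower), and 0 were called by the methods' t-test after the same adjustment. At an unadjusted p under 0.05, 1 of the 7 passed with AgNP, Nkx1-2, beside 8.44% of named probe sets. None of the 7 had all AgNP arrays below the controls, which was so for 6.09% of named probe sets. The median difference of the 7 genes was -0.17 with Ag+ and 0.01 with AgNP, beside -0.00 and -0.01 over all named probe sets. Both comparisons use the same 3 control arrays. Since the 7 genes were chosen with earlier results of these data known, nothing particular to them is read from these counts.

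**Figure D1:**
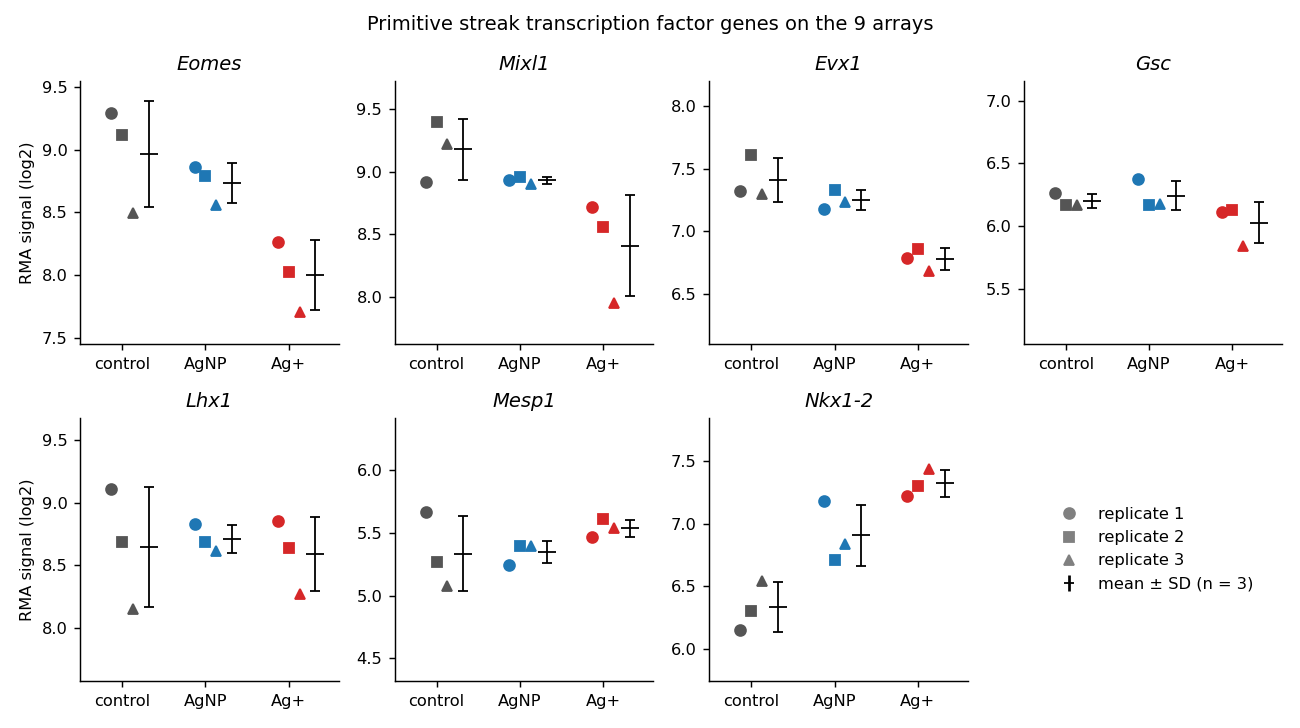
Log2 RMA signal of each of the 7 genes (vertical axis) in the 3 control, 3 AgNP and 3 Ag+ arrays. Points are arrays, bars are group means and error bars are SDs (n = 3). The Ag+ points of Eomes, Mixl1, Evx1 and Gsc lie below all control points, and those of Nkx1-2 lie above them.

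Eomes read 9.29, 9.11 and 8.49 in the control arrays, 8.86, 8.79 and 8.56 in the AgNP arrays and 8.27, 8.03 and 7.71 in the Ag+ arrays. Every Ag+ array was below every control and every AgNP array, while the AgNP arrays lay inside the control range. The group means were 8.97 ± 0.42, 8.74 ± 0.16 and 7.999 ± 0.28 (SD, n = 3). The Ag+ difference was -0.97 (SE 0.21, 95% interval -1.43 to -0.50, limma adjusted p = 0.0475). That p lies close to the threshold, and the call was lost when any single array other than control replicate 3 was left out (control replicates 1 and 2, each AgNP and each Ag+ array), with differences between -1.10 and -0.80. Eomes thus kept its direction without each array but not its call. With the replicate number fitted as a block on all arrays, the limma adjusted p of Eomes with Ag+ was 0.00298. The AgNP difference was -0.23 (95% interval -0.69 to 0.24, limma adjusted p = 0.774). The promoter is printed as it belongs to the T-box gene at the head of the set. It lies in RefSeq at chr9:118477939-118478238 (GRCm38.p6, plus strand) and holds no match to any of 8 motifs searched, so that the whole window is in lower case.
Eomes: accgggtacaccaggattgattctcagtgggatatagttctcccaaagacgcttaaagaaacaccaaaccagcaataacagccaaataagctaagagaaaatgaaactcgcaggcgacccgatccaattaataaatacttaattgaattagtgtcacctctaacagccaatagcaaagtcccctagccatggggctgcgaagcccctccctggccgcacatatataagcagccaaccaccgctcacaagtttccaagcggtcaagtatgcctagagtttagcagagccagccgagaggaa

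Mixl1 read 8.92, 9.39 and 9.22 in the controls, 8.94, 8.96 and 8.90 with AgNP and 8.72, 8.56 and 7.95 with Ag+. The Ag+ arrays again lay below all others, Ag+ replicate 3 far below the remaining Ag+ arrays, and the AgNP arrays fell within a narrow band inside or just under the control range. The Ag+ difference was -0.77 (SE 0.18, 95% interval -1.18 to -0.35), a 1.70-fold lower mean, and did not pass the threshold (limma adjusted p = 0.077). The SD was 0.40 in the Ag+ group, 0.24 in the controls and 0.03 in the AgNP group (n = 3 each). With AgNP the difference was -0.25 (95% interval -0.66 to 0.17, limma adjusted p = 0.731).

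Evx1, the posterior streak gene, read 7.32, 7.61 and 7.30 in the controls, 7.18, 7.33 and 7.24 with AgNP and 6.79, 6.86 and 6.69 with Ag+. The Ag+ arrays were the lowest 3 of the 9, and AgNP and control arrays overlapped. Ag+ gave -0.63 (SE 0.09, 95% interval -0.84 to -0.42, limma adjusted p = 0.00822). The call held without each single array, with differences of -0.69 to -0.53. The AgNP difference was -0.16 (95% interval -0.37 to 0.05, limma adjusted p = 0.664). The RefSeq promoter of Evx1 at chr6:52313248-52313547 (GRCm38.p6, plus strand) is shown because it holds the most motif matches among the genes called with Ag+. Capitals mark CAGAC, the SMAD-type motif, on the opposite strand 111 bases before the start and on the gene strand 22 bases after it, the T-box core TCACAC 69 bases before the start, and the E-box CACCTG 37 bases before it.
Evx1: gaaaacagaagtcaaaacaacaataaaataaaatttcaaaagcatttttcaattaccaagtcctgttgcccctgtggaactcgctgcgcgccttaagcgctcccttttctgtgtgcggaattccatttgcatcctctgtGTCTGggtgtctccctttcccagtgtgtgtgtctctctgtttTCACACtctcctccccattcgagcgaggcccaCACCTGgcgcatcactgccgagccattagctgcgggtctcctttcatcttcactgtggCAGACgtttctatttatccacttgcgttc

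Nkx1-2 ran the other way. It read 6.15, 6.31 and 6.55 in the controls, 7.18, 6.71 and 6.84 with AgNP and 7.22, 7.31 and 7.44 with Ag+. Every exposed array was above every control, and every Ag+ array was above every AgNP array, so the 3 groups stood in the order control, AgNP, Ag+. The Ag+ difference was 0.99 (SE 0.14, 95% interval 0.68 to 1.29, limma adjusted p = 0.00551) and held without each array, at 0.90 to 1.10. The AgNP difference was 0.57 (SE 0.14, 95% interval 0.27 to 0.88, unadjusted p = 0.00201), which did not pass over all probe sets (limma adjusted p = 0.28), although its arrays did not overlap the controls, as was the case in the higher direction for 4.84% of named probe sets. A second, dimmer probe set annotated to Nkx1-2 alone disagreed in size. It averaged 5.33 ± 0.10 in the controls, 5.27 ± 0.13 with AgNP and 5.55 ± 0.18 with Ag+ (SD, n = 3), and its groups overlapped. Its differences were 0.22 with Ag+ (limma adjusted p = 0.392) and -0.06 with AgNP (limma adjusted p = 0.897), so the rise of Nkx1-2 rests on the brighter probe set, and the mean of both probe sets gave 0.61 with Ag+, still called. The RefSeq promoter of the gene that rose, at chr7:132599588-132599887 (GRCm38.p6, minus strand), holds 1 match, CAGAC on the opposite strand 113 bases before the start, in capitals.
Nkx1-2: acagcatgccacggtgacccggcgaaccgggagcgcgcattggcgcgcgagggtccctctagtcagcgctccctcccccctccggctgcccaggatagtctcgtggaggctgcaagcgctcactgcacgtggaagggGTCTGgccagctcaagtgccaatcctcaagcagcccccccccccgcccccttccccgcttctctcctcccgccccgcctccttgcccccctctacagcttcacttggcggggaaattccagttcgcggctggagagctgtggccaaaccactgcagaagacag

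Of the 7 genes, the anterior streak genes Lhx1 and Gsc had the smallest differences with Ag+. Gsc read 6.27, 6.17 and 6.17 in the controls, 6.38, 6.17 and 6.18 with AgNP and 6.11, 6.13 and 5.84 with Ag+. The Ag+ arrays were just below all others, mainly through Ag+ replicate 3, and the difference of -0.17 (95% interval -0.38 to 0.04, limma adjusted p = 0.456) did not pass. Lhx1 read 9.11, 8.68 and 8.15 in the controls, 8.83, 8.68 and 8.62 with AgNP and 8.85, 8.64 and 8.27 with Ag+. The 3 groups overlapped fully, and control replicates alone spanned all 9 values. The Lhx1 difference was -0.06 with Ag+ (95% interval -0.56 to 0.44, limma adjusted p = 0.937) and 0.06 with AgNP (95% interval -0.44 to 0.57, limma adjusted p = 0.947), with intervals that are wide on both sides of 0. A probe set annotated to both Lhx1os, the antisense neighbour, and Lhx1 gave 0.18 with Ag+ (limma adjusted p = 0.533) and 0.25 with AgNP (limma adjusted p = 0.591). Gsc differed by 0.04 with AgNP (95% interval -0.17 to 0.25, limma adjusted p = 0.915).

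Mesp1, a target of Eomes, read 5.67, 5.27 and 5.08 in the controls, 5.25, 5.40 and 5.40 with AgNP and 5.47, 5.61 and 5.54 with Ag+. The control arrays spanned all the others, and the signal was low, above that of 55.7% of named probe sets only. The Ag+ difference was 0.20 (95% interval -0.09 to 0.50, limma adjusted p = 0.538) and the AgNP difference was 0.01 (95% interval -0.28 to 0.31, limma adjusted p = 0.988). The Mesp1 mean with Ag+ was thus above that of the controls, within the spread, while the Eomes mean was below. Whether a probe set of so low a signal can show a fall was not tested, nor was a link between Mesp1 and Eomes. Its RefSeq promoter at chr7:79793541-79793840 (GRCm38.p6, minus strand) is shown beside that of Evx1, since both hold a SMAD-type, a T-box and an E-box match while only Evx1 was called. Capitals mark CACCTG on the opposite strand 126 bases before the start, CAGAC 117 bases before, the TCF/LEF motif CTTTGAT 31 bases before and TCACAC 6 bases after the start.
Mesp1: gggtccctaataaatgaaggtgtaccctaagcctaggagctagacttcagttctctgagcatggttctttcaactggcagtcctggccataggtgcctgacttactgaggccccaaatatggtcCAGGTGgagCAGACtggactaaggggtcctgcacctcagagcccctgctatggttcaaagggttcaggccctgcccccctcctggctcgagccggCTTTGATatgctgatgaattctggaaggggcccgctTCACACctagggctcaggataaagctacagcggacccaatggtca

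Promoter windows of 300 bases, 250 before the start and 50 from it, were found for 6 of the 7 genes, Mixl1 being the exception. The 8 motifs were searched on both strands as the T-box core TCACAC, the TCF/LEF motif CTTTGAT, the FOXH1-type motif TGTNNATT, the Gsc-type homeobox motif TAATCC, the general homeobox motif TAATTA, the SMAD-type motif CAGAC, the E-box CACCTG and the TATA box TATAAA. They gave 11 matches, none overlapping another. Besides those shown, Gsc held TATAAA 164 bases before its start and Lhx1 held CAGAC 60 bases before its start. Such short motifs are frequent: of 32851 RefSeq windows of the same length, 49.6% held CAGAC, 20.2% CACCTG, 14.5% TCACAC, 13.6% TATAAA, 12.2% TGTNNATT, 7.06% TAATCC, 5.29% TAATTA and 3.73% CTTTGAT. A match is a description of letters, and no match says only that the letters are not in the window.

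**Figure D2:**
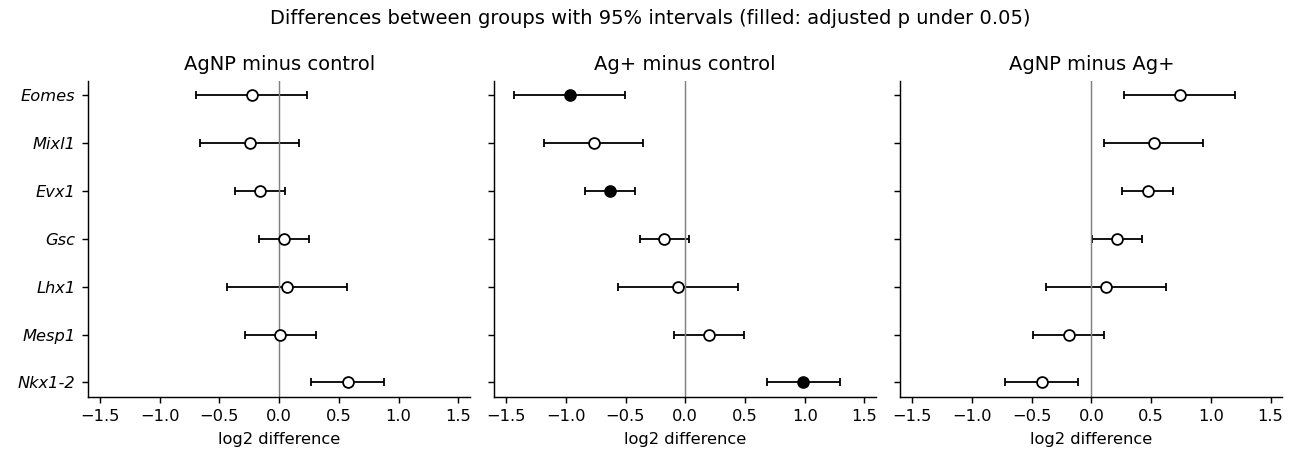
Log2 difference (horizontal axis) of each of the 7 genes in the 3 comparisons, with 95% intervals from limma as bars and filled points for an adjusted p under 0.05. Only Eomes, Evx1 and Nkx1-2 with Ag+ are filled, and the AgNP points lie closer to 0 than the Ag+ points for Eomes, Mixl1, Evx1 and Nkx1-2.

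The direct comparison of the particle with the ion addresses whether the 7 genes differ between the forms of silver at the same mass dose. Equal mass was not equal toxicity: the paper reports more cell death in EBs with Ag+ than with AgNP at this dose. It also reports that outer EB cells came off at lower doses of Ag+ than of AgNP, and that the particles release some Ag+ into medium. The part of these in the differences was not tested. Limma called 0 of the 7, and the methods' t-test called 0 after adjustment, where 0.509% of all named probe sets were called by limma (0.363% higher and 0.146% lower with AgNP). At an unadjusted p under 0.05, 5 of the 7 passed, beside 8.31% of named probe sets. AgNP arrays lay wholly above Ag+ arrays for 4 genes (Eomes, Mixl1, Evx1 and Gsc), against 6.72% of named probe sets, and wholly below them for Mesp1 and Nkx1-2, against 5.61%. The differences, AgNP minus Ag+, were 0.74 for Eomes (95% interval 0.27 to 1.20, limma adjusted p = 0.273) and 0.47 for Evx1 (95% interval 0.26 to 0.68, limma adjusted p = 0.0852). Those of Mixl1 and Nkx1-2 were 0.52 and -0.42 (limma adjusted p = 0.442 and 0.381). Gsc, Lhx1 and Mesp1 gave 0.21, 0.12 and -0.19 (limma adjusted p = 0.58, 0.934 and 0.769). Eomes, Evx1 and Nkx1-2 were called with Ag+ and not with AgNP, and limma's tests of that difference, without a replicate block, did not pass. With a replicate block, Eomes and Evx1 passed (limma adjusted p = 0.0235 and 0.0382) and Nkx1-2 did not.

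The genes whose pattern over the 9 arrays was most like each member were ranked by Pearson correlation among about 12000 probe sets (12001, or 12000 for Nkx1-2) with a mean of at least 5. The points share groups and processing, and the correlations are descriptions. Eomes was most like Fem1c (r = 0.99), Cyp26a1, the retinoic acid-degrading enzyme of the caudal embryo (r = 0.98), and Ncbp1 (r = 0.98). Mixl1 was most like Flot2, Twistnb and Sik1 (0.98, 0.96 and 0.96), and Evx1 like Cep170b, Utp4 and Mex3b (0.98, 0.97 and 0.97). Lhx1 was most like D11Wsu47e, Zfp445 and Blzf1 (0.98, 0.98 and 0.96). Gsc was most like Trap1a, Tbc1d22a and Ung (0.96, 0.94 and 0.94), Mesp1 like Elmo1, Trmt1l and H4c14 (0.92, 0.91 and 0.90), and Nkx1-2 like Lsm4, Ptprn and Slc38a8 (0.95 each).

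The spread of Eomes inside groups was shared closely with some genes and less with others. In each group, Eomes, Lhx1, Cyp26a1 and Nanog were highest in replicate 1 and lowest in replicate 3. The spread of these genes thus followed the replicate number, which the main fit does not include. Cyp26a1 read 8.61, 8.24 and 7.65 in the controls, 7.99, 7.82 and 7.80 with AgNP and 7.42, 7.29 and 6.997 with Ag+, so that the array highest in Eomes within each group was also the highest in Cyp26a1, and the lowest the lowest. After the group means were taken away, the 9 deviations of Eomes correlated with those of Cyp26a1 at 0.95 and with those of Lhx1 at 0.97. Over the unadjusted arrays, however, Lhx1 gave r = 0.60 with Eomes. The deviations of Gsc, Mesp1, Evx1, Mixl1 and Nkx1-2 correlated with those of Eomes at 0.62, 0.55, 0.39, 0.31 and -0.54. Among the listed genes, picked here after their values were seen, the deviations of Eomes also went with those of Foxa2 (0.98), Lefty2 (0.96), the Nodal co-receptor Tdgf1 (0.94), the pluripotency factor Nanog (0.90) and the epiblast marker Fgf5 (0.90), and ran opposite to those of the receptor gene Fgfr1 (-0.97), the caudal factor Cdx2 (-0.93), Pax2 (-0.81), Hoxb1 (-0.77) and Bmp4 (-0.74). Nanog read 8.50, 8.25 and 7.09 in the controls, 9.02, 8.03 and 7.55 with AgNP and 7.99, 7.16 and 6.71 with Ag+, and thus spread more inside each group than between the group means. The part of this shared spread in the Eomes difference was not tested. The Cyp26a1 difference was -0.93 with Ag+ (limma adjusted p = 0.0611).

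**Figure D3:**
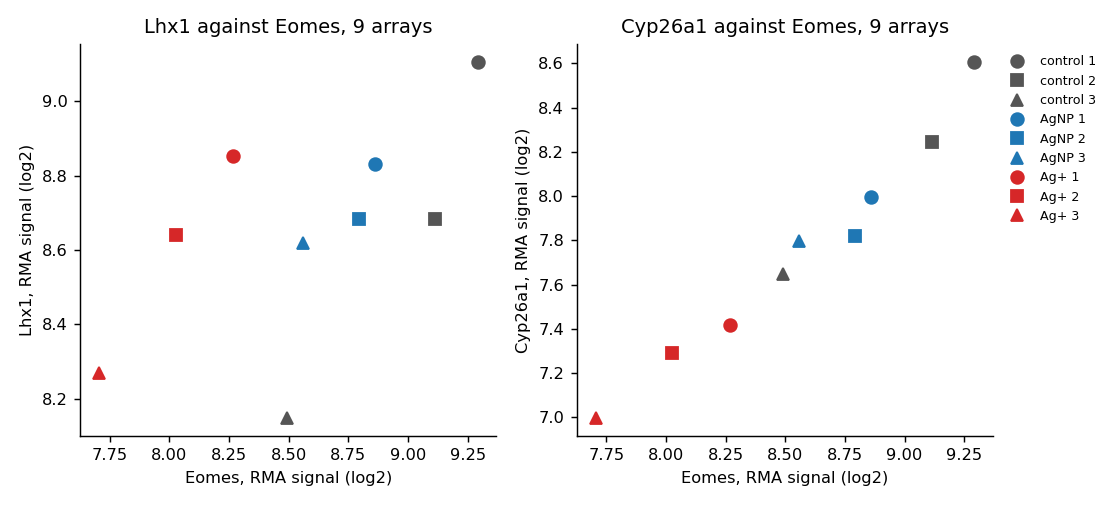
Log2 RMA signal of Lhx1 (left, vertical axis) and of Cyp26a1 (right, vertical axis) against that of Eomes (horizontal axes), where each point is 1 of the 9 arrays, colours are groups and shapes are replicate numbers. Cyp26a1 and Eomes lie along a single line (r = 0.98), whereas Lhx1 follows Eomes inside each group (r = 0.97 of the deviations from group means) with the Ag+ arrays set to the left.

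Genes that act around the 7 factors were read from lists holding 118 distinct measured genes, of which 25 were called with Ag+ (9 higher and 16 lower), 1 with AgNP and 11 between AgNP and Ag+, where 2.28%, 0.0868% and 0.509% of all named probe sets were called. Nothing particular to the lists is read from these counts, since the lists were chosen with earlier results known. Of 16 streak-inducing ligands and receptors, 1 rose and 2 fell with Ag+, with a median of -0.12. Bmp4 and Wnt3, which with Nodal induce the streak, fell by 1.79 and 0.84 on the log2 scale (limma adjusted p = 0.00589 and 0.00385). Nodal itself differed by -0.07 (limma adjusted p = 0.83), with overlapping arrays. Fgf4 and Fgf8 differed by -0.03 and -0.28 (limma adjusted p = 0.907 and 0.488). Bmp4 read 8.40, 9.08 and 9.27 in the controls and 6.96, 7.20 and 7.21 with Ag+, Wnt3 read 7.44, 7.39 and 7.15 and then 6.64, 6.41 and 6.41, and neither overlapped. Wnt3a, the ligand of the later streak and tail bud, rose by 0.45 (limma adjusted p = 0.0299), a call lost without control replicate 3, AgNP replicates 2 or 3 or any Ag+ array, at 0.43 to 0.47. Of 10 antagonists, the BMP antagonist Chrd rose by 1.02 (limma adjusted p = 2.11e-04) and the inhibitory SMAD gene Smad7, itself a target of BMP and Nodal signals, fell by 1.46 (limma adjusted p = 3.02e-04), with a list median of 0.07. None of 7 signal transducers was called (median -0.03), the smallest p being that of Tcf7l1 at 0.29 (limma adjusted p = 0.189).

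Of 7 other streak and nascent mesoderm factors that were measured, 4 rose with Ag+ and none fell (median 0.31). T (Brachyury), also on the list, was not analysed, because no probe set was annotated to the symbol T alone. Other names of the gene were not searched, so its absence here does not mean that the array lacks it. The paper lists T among the genes changed with Ag+. Tbx6, the T-box factor of paraxial mesoderm, read 6.31, 6.32 and 6.25 in the controls, 6.71, 6.89 and 7.10 with AgNP and 7.26, 7.37 and 7.23 with Ag+. Its groups stood apart in the same order as those of Nkx1-2, and its Ag+ difference was 0.99 (limma adjusted p = 7.91e-04). Msgn1, a paraxial mesoderm factor, Ripply2, a somite boundary factor, and Sp8 differed by 0.62, 0.67 and 0.31 (limma adjusted p = 0.0445, 0.0406 and 0.0436). These 3 calls rest on small margins. That of Msgn1 was lost without each of the 9 arrays (0.47 to 0.70), that of Sp8 without each but control replicate 1 (0.28 to 0.33), and that of Ripply2 without each but Ag+ replicate 1 (0.50 to 0.73). Of 6 caudal epiblast genes, Hoxb1 rose by 1.04 (limma adjusted p = 0.00437, list median 0.28). Of 7 axial mesoderm and definitive endoderm genes (median 0.31), Noto, a notochord homeobox gene, rose by 1.25 (limma adjusted p = 0.00399), and the chemokine receptor gene Cxcr4 differed by -0.44 (limma adjusted p = 0.0345), a call lost without control replicates 1 or 2, AgNP replicates 2 or 3 or any Ag+ array, at -0.46 to -0.38.

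Of 10 cardiac and lateral mesoderm genes, 5 fell with Ag+ and none rose, with a median of -0.62. They were the transcription factor genes Tbx20, Hand1 and Hand2, with differences of -2.59, -2.23 and -2.02 (limma adjusted p = 2.11e-04, 0.00161 and 4.47e-04), the endothelial receptor gene Kdr, which fell by 1.87 (limma adjusted p = 5.15e-04), and Gata4, which fell by 1.03 (limma adjusted p = 5.07e-04). Tbx20 was also the only listed gene called with AgNP, with a difference of -1.26 (limma adjusted p = 0.0399), a call lost without any array but control replicate 1, at -1.40 to -1.13. None of 8 protein partners and none of 7 paralogs of the 7 factors was called with Ag+ (medians 0.04 and 0.13). The smallest p among them were those of the co-repressor Tle3 at -0.22 (limma adjusted p = 0.164) and of Lhx5 at 0.39 (limma adjusted p = 0.0565).

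**Figure D4:**
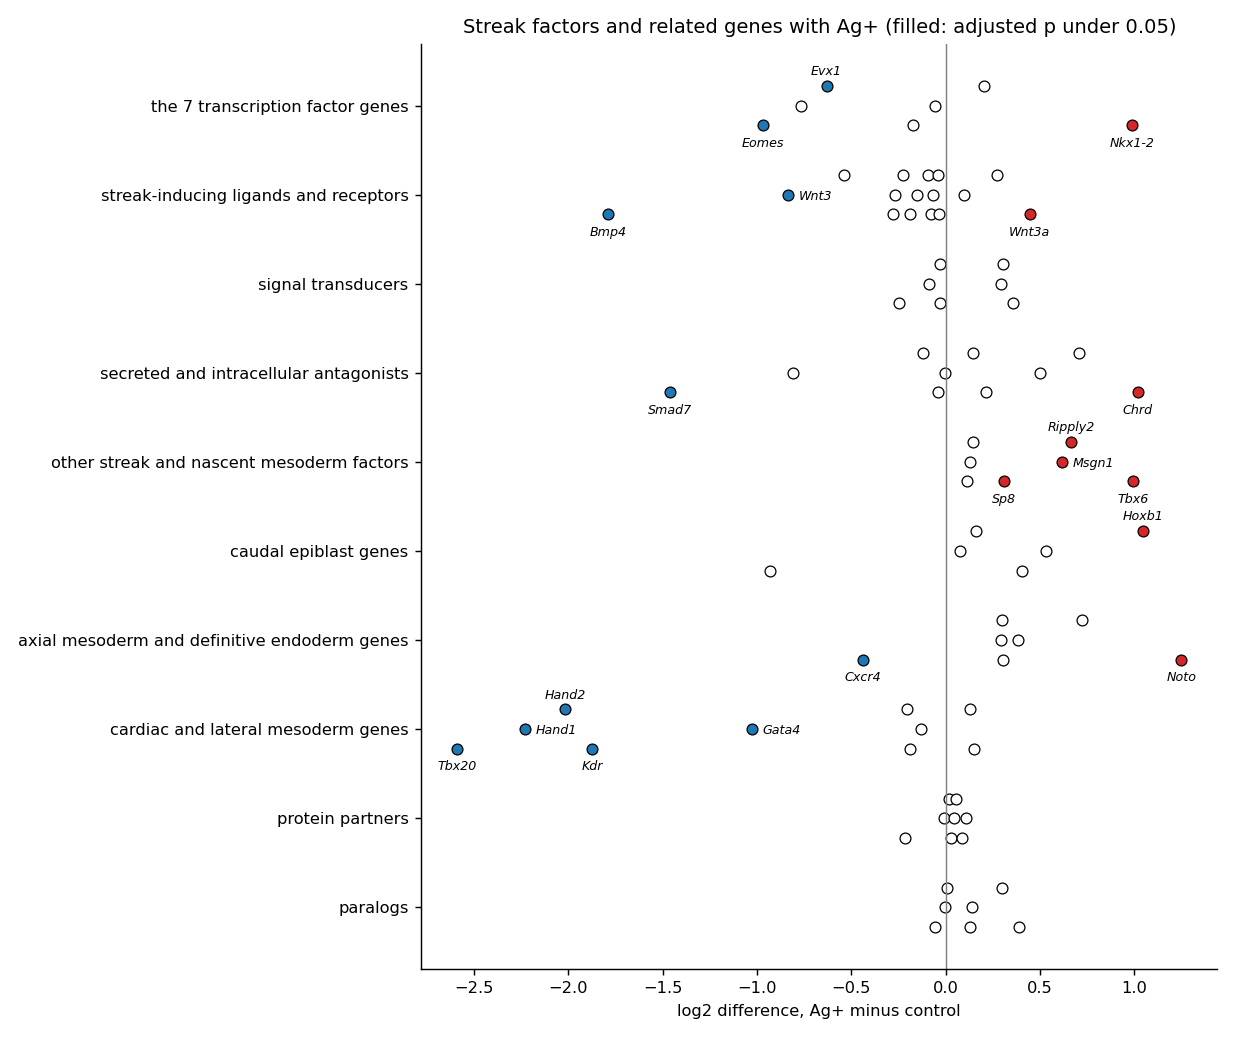
Log2 difference, Ag+ minus control (horizontal axis), of the 7 factors and of the genes in 9 related lists (rows; points are shifted up or down inside a row for legibility). Blue and red points passed an adjusted p under 0.05 (limma) lower and higher; 5 cardiac and lateral mesoderm genes lie to the left and 4 other streak and nascent mesoderm factors to the right.

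Between AgNP and Ag+, 11 of the listed genes were called, 10 higher with AgNP and 1 lower. Among the signalling genes, Wnt3 was higher with AgNP by 0.74 (limma adjusted p = 0.0245), a call lost without control replicate 2, any AgNP array or Ag+ replicates 2 or 3, at 0.66 to 0.79, and Chrd was lower by 0.58 (limma adjusted p = 0.00795). Chrd read 6.24, 6.29 and 6.25 with AgNP and 6.79, 6.75 and 6.96 with Ag+, without overlap. The remaining 9 calls were Smad7, 3 cardiac and lateral mesoderm genes (Tbx20, Kdr and Gata4) and 5 visceral endoderm markers. The calls of Chrd and of the visceral endoderm markers Apob and Cubn held without each array. The other 8, Wnt3 included, were lost without Ag+ replicate 2 and, except for Amn, also without Ag+ replicate 3 and 1 or more AgNP arrays, and some without a control array. In the fits that lost the call, the differences were 0.59 to 0.75 for Smad7, 0.54 to 0.64 for Gata4, 1.27 to 1.35 for Tbx20 and 0.92 to 1.16 for Kdr. For the visceral endoderm markers Ttr, Lrp2 and Amn they were 0.67 to 0.81, 1.74 to 2.13 and 0.81, so that direction and approximate size were kept.

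Markers of other cell types moved in the same arrays. Of 8 visceral endoderm markers, 5 fell with Ag+ (Cubn, Lrp2, Apob, Ttr and Amn, with differences of -3.35, -2.07, -2.05, -1.14 and -0.63), with a median of -0.89. The summed linear signal of the list was 1083 to 1386 in the controls, 924 to 1288 with AgNP and 286 to 368 with Ag+. The control and AgNP ranges overlapped, the AgNP range being lower at both ends, and the Ag+ range lay below both. The 4 anterior visceral endoderm markers, which include genes the anterior streak also uses, summed to 373 to 492, 450 to 531 and 441 to 523, and none was called (smallest p, Cer1 at 0.71, limma adjusted p = 0.311). Of 5 trophoblast markers, a tissue in which Eomes is also active, only Plet1 was called, and it fell by 0.81 (limma adjusted p = 0.00247). Plet1 was the brightest of them, at a 9-array mean of 6.56. Elf5, Tpbpa and Ascl2 averaged 3.85, 2.97 and 4.80, below the median of 5.06 over all named probe sets. With Ag+, Elf5 and Tpbpa differed by 0.18 and 0.11, and Ascl2 and Gata3 by -0.10 and -0.34. The list, in which Plet1 weighs most, summed to 218 to 235, 171 to 196 and 155 to 168. The part of visceral endoderm and trophoblast cells in the Eomes difference was not tested.

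Of the 8 pluripotency markers, Klf4 differed by -0.56 with Ag+ (limma adjusted p = 0.0232), a call lost without any control array or Ag+ replicates 2 or 3, at -0.58 to -0.47. The list summed to 497 to 835 in the controls, 605 to 1061 with AgNP and 507 to 674 with Ag+. Of 6 neural progenitor markers, Irx3 rose by 0.74 (limma adjusted p = 0.0106), a call lost without Ag+ replicates 2 or 3, at 0.68 and 0.72. Among 4 epiblast markers, 4 intermediate mesoderm markers, where Lhx1 is active too, and 5 primordial germ cell markers, none was called with Ag+. The smallest p in these lists were those of Dnmt3b at -0.53 (limma adjusted p = 0.112), Pax8 at 0.09 (limma adjusted p = 0.654) and Prdm1 at -0.23 (limma adjusted p = 0.348). Epiblast markers summed to 1549 to 2159 in the controls, 1608 to 2193 with AgNP and 1237 to 1688 with Ag+, with overlap between the groups.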

How the data were processed

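RNA of EBs was hybridised to 9 arrays, 3 per group. Per the labels and the study's methods, the authors used Expression Console 1.3 with RMA (background correction, quantile normalization and probe set summary), and the deposited values are log2 signals of 41345 probe sets (1.07 to 13.2). Quantile normalization gives every array the same distribution, so a shift of all genes cannot be seen. The amount of RNA labelled differs between the methods and the labels. Gene names came from the platform annotation: 23521 probe sets named 1 gene, 1820 several and 16004 none.

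Group means were fitted with limma 3.58.1 (R 4.3.3; lmFit and eBayes over 9 arrays), with Benjamini-Hochberg adjustment over 25341 named probe sets. With 3 arrays against 3, an exact permutation test cannot go below p = 0.1, so limma's p-values are given. They set each group difference against the spread between arrays inside the groups, moderated over all named probe sets. The fit was tested on simulated data for Ag+ minus control (25341 probe sets): 43 of 67 genes changed by 1.5-fold, 63 of 67 by 2-fold and 66 of 66 by 4-fold were recovered, with 4 unchanged ones called. The number of arrays limits the precision.

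The named genes were the 7 members, list genes called in at least 1 comparison or else those of smallest p with Ag+, and the 3 genes most like each member. Members and lists were chosen with earlier results of these data known. The 17 lists hold 124 distinct genes, 118 of them measured, and the rest were not analysed here. Promoters came from RefSeq (GRCm38.p6). Alternatives tried were leaving out each array, a replicate block, robust and trended fits, array weights, 2 groups only, all probe sets, a mean signal of at least 5, median centring, other probe sets, averaged probe sets per gene and the methods' t-test.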

Additional observations from a re-analysis of the deposited data

How the results depend on the processing

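The number of the 7 genes called with Ag+ was 3, was 2 to 3 when each array was left out, and was 0 by the methods' t-test after Benjamini-Hochberg adjustment. At the methods' own thresholds (1.5-fold, unadjusted p under 0.05) that test passed 3 of the 7 with Ag+, 0 with AgNP and 1, Eomes, between AgNP and Ag+, beside 334, 73 and 158 of 25341 named probe sets. Among the 19 alternatives run for all 7 genes, the Evx1 and Nkx1-2 calls held in 18, and the Eomes call in 7, being lost also with 2 groups only, a robust fit and all probe sets. Outside these 19, the other Nkx1-2 probe set lost the call (0.22, adjusted p = 0.392). Mixl1 was called with a trended fit and with a mean of at least 5. Between AgNP and Ag+, 2 genes were called with a replicate block (Eomes and Evx1, adjusted p = 0.0235 and 0.0382), and 1 (Evx1) with a trended fit and 1 with a mean of at least 5, against 0.

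Same-numbered arrays of different groups had deviations correlated at -0.06 to 0.23, with 4 of 9 pairs over 0.1, against -0.27 to 0.19 and 2 of 18 for different numbers, and 5 of 9 arrays correlated best with their own number in both other groups. The labels tie no number to a shared batch, and not every pair was over 0.1. The numbers were therefore not taken to pair the samples, although the correlations hint at some sharing. Eomes, Lhx1, Cyp26a1 and Nanog each ran from replicate 1 highest to replicate 3 lowest in all groups. For such genes the main fit leaves that spread in the error, and the block takes it out. The replicate block left 3 genes called with Ag+ and 0 with AgNP, and called 623, 20 and 161 named probe sets for Ag+, AgNP and AgNP minus Ag+, against 579, 22 and 129.

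Of 399 differences recomputed under those 19 alternatives, 370 kept direction and call, 14 lost it, 6 gained it and 9 turned in direction. None that turned was called. Without single arrays, the AgNP differences ran from -0.12 to 0.18 for Mesp1, from -0.18 to 0.29 for Lhx1 and from -0.027 to 0.076 for Gsc. For Lhx1 they ran from -0.31 to 0.17 with Ag+ and from -0.035 to 0.26 between AgNP and Ag+. The other probe sets gave -0.056 for Nkx1-2 with AgNP and 0.18 for Lhx1 with Ag+. The causes were not tested.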
